A study of Saccharomyces cerevisiae with 9 samples.

Results

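The response of yeast without IME4 to acetate medium was read from 4 of the 9 arrays of the series. All arrays hold total RNA of Saccharomyces cerevisiae SK1, a strain that sporulates readily. Both groups are labelled ime4-/-, cells without a working IME4 gene. The first group was growing in YPD, the rich glucose medium in which the cells were kept (2 arrays), and the second was sampled 4 h after transfer to SPO, a sporulation medium of 1% potassium acetate (2 arrays). The 5 other arrays hold wild-type cells (WT) in YPD (2) and in SPO (3), and they serve here only to test where the mutant responded differently. The labels call the arrays biological replicates and give neither mating type nor ploidy, nor the extent of the deletion. Members were chosen by their titles alone, and 5359 probe sets of 5311 genes were tested on them.

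Budding yeast on glucose ferments, represses respiration and invests most of its transcription in ribosomes. When glucose is gone and only acetate is left, acetate is taken up and activated to acetyl-CoA, carried into mitochondria, oxidised in the tricarboxylic acid (TCA) cycle and respired. Sugars are then built through the glyoxylate cycle and gluconeogenesis. In diploid cells that also lack nitrogen, the same medium opens the sporulation programme through IME1, and IME4, a methyltransferase that places N6-methyladenosine on messenger RNA, is needed for that step to run efficiently.

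IME4 itself was listed at 4.9 and 5.4 in YPD and 5.8 and 4.4 in SPO. All 4 values lay under the background level of their array, an intensity of 8.05 to 9.3, set at the 95th percentile of probe sets for another yeast species. Between 96.3% and 98.2% of the tested probe sets exceeded that level on these arrays. Replicates correlated across probe sets with r = 0.998 in both media and differed by a median of 0.0614 log2 in YPD and 0.0664 in SPO. The arrays carried the marks of alpha cells. The alpha-factor gene MF(ALPHA)1 read 2952 and 3118 in YPD and 641 and 669.6 in SPO, while the HMRA1 probe set for the a1 transcript, which a/alpha diploids make, read 3.8 and 3.1 in YPD and 6.6 and 9.7 in SPO, with 3 of its 4 values below background. On the WT arrays HMRA1 lay above background throughout. Every comparison with WT is therefore also a comparison between mating-type patterns, and genotype and pattern cannot be told apart.

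Changes are given below as log2 differences, SPO minus YPD, from limma on log2 intensity, so that 1 unit is a 2-fold change. A gene rose or fell where the p-value adjusted over all probe sets was under 0.05. By this rule 2357 probe sets rose (44.0% of those tested), 2252 fell (42.0%) and 750 did neither. A rise of at least 2-fold was seen for 922 (17.2%) and a fall of at least 2-fold for 868 (16.2%). The counts were even, but the sizes were not: 63 probe sets rose at least 16-fold and none of the tested sets fell that far, and 129 rose against 11 that fell at least 8-fold. The middle 50% of changes lay between -0.67 and 0.68, which is the yardstick for the gene groups that follow. Several list medians lay inside that range, among them early recombination (0.64), the respiratory chain (0.55) and the kinetochore (0.27). So did those of the proteasome (-0.39), replication (-0.41) and RNA decay (-0.31) lists. Counts of rises and falls in the groups stand beside the shares of 44.0% and 42.0%. Among the brightest 25% of probe sets, by the mean of all arrays, 51.3% fell and 39.4% rose, against 30.9% and 48.1% in the dimmest 25%.

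**Figure D1:**
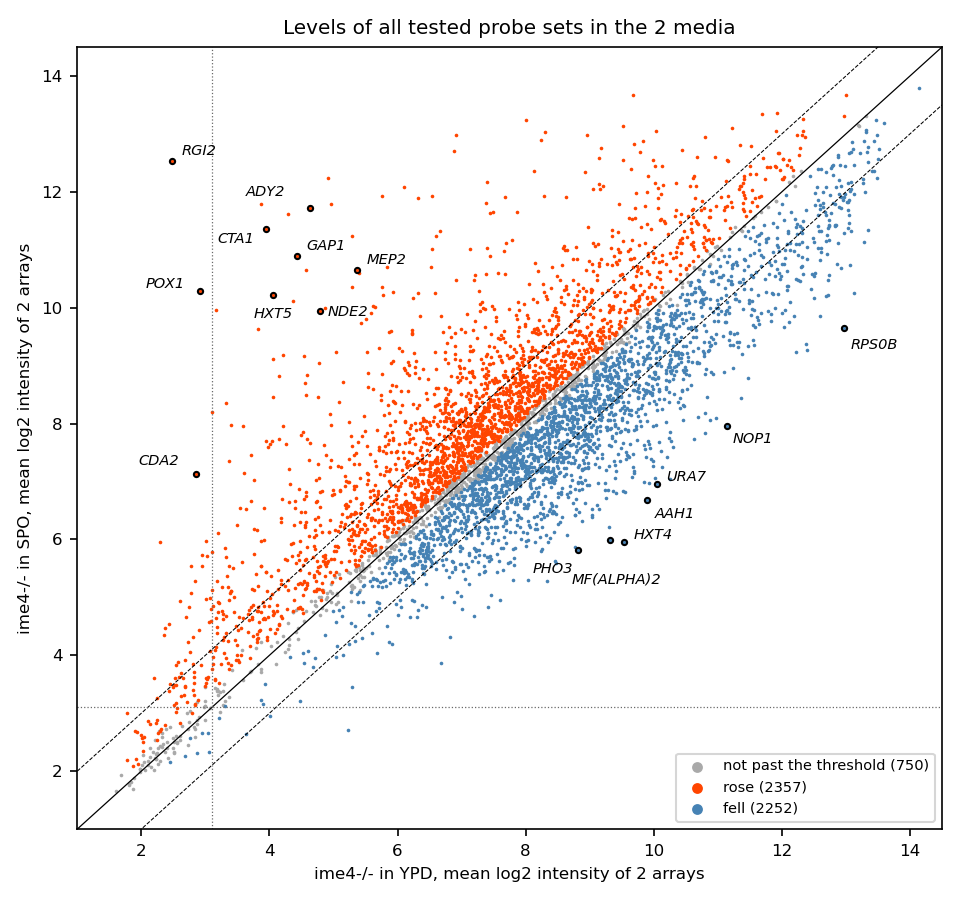
Mean log2 intensity of the 2 SPO arrays (vertical axis) against the 2 YPD arrays (horizontal axis) for each of the 5359 probe sets, coloured by call. The solid line marks equal values, dashed lines a 2-fold change and dotted lines the mean background level. Rises reach much further from the diagonal (RGI2, POX1, ADY2) than falls (HXT4, RPS0B, NOP1).

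The largest rise was in RGI2, a gene of energy metabolism under respiratory growth, which read 5.0 and 6.2 on the YPD arrays and 5988 and 5900.0 on the SPO arrays. It was at background in YPD and at least 649.7-fold higher in SPO (adjusted p = 1.40e-11). Its paralog RGI1, already bright in YPD, rose by 1.28. Next came the uncharacterised YLR012C (7.92), the peroxisomal catalase gene CTA1 (7.42), POX1 for acyl-CoA oxidase (at least 136-fold), the mitochondrial carnitine carrier gene CRC1 (7.32) and the thiolase gene POT1 (7.32). ADY2 of acetate uptake, SPG4 of stationary phase, GAP1, the general amino acid permease gene, HXT5, a hexose transporter gene, and YAT2, a carnitine acetyltransferase gene, followed with changes between 6.16 and 7.09. YGR067C belongs in this range too (6.80), though its size is uncertain because 1 of 2 YPD arrays lay above background.

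At the other end stood HXT4, a hexose transporter gene, which fell by 3.58 (SE 0.0724, adjusted p = 1.19e-10), from 777 and 707 on the YPD arrays to 61.2 and 62.4 on the SPO arrays. The 12 largest falls were completed by the ribosomal protein genes RPS0B, RPS0A and RPL6B, the nucleolar genes NIP7, NOP1 and NOP13, the adenine deaminase gene AAH1, the CTP synthase gene URA7, the acid phosphatase gene PHO3, the serine and threonine deaminase gene CHA1 and the alpha-factor gene MF(ALPHA)2. Their changes ran from -3.33 to -3.0. In each of these 24 genes the YPD and SPO arrays did not overlap, as the rule that named them required.

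The genes that bring acetate in and pass its carbon on rose at nearly every step. ADY2, which encodes the main acetate transporter of the plasma membrane, read 26.1 and 23.6 on the YPD arrays and 3434 and 3339.8 on the SPO arrays, a rise of 7.09 (SE 0.0853, adjusted p = 6.19e-12). Its relatives ATO2 (4.47) and ATO3 (3.20) and the lactate and pyruvate permease gene JEN1 (5.20) rose too. Of the carnitine shuttle, which moves acetyl groups between compartments, all 5 genes rose: AGP2 for carnitine uptake (3.33), CAT2 (4.65), YAT1 (5.74) and YAT2 (6.16) for acetyl transfer, and CRC1 for passage through the inner mitochondrial membrane. CRC1 read 17.7 and 21.7 on the YPD arrays and 3152 and 3120.1 on the SPO arrays, with no overlap. Of 13 genes for acetate and carboxylate transport 12 rose, with a median of 4.47. The exception was DIC1, the dicarboxylate carrier gene, which fell by 0.34.

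All 17 measured genes of gluconeogenesis, the glyoxylate cycle and their regulation rose, with a median of 3.92 against 0.04 over all probe sets. ICL1 for isocitrate lyase, the first committed enzyme of the glyoxylate cycle, read 110.0 and 132 on the YPD arrays and 8167 and 8056 on the SPO arrays (log2 change 6.07, SE 0.0762, adjusted p = 7.04e-12). MLS1 for malate synthase rose by 5.83, and SFC1, whose carrier exports fumarate from mitochondria in exchange for succinate, by 5.97. Both gates of gluconeogenesis moved: PCK1 for phosphoenolpyruvate carboxykinase rose by 4.65 and FBP1 for fructose-1,6-bisphosphatase by 4.35, the latter from 59.4 and 62.1 on the YPD arrays to 1222 and 1249 on the SPO arrays. The activator genes CAT8 (3.92), SIP4 (4.97) and ADR1 (3.66) rose with their known targets, while RDS2 (0.16) and ERT1 (0.27), also activator genes, moved little and lost their calls after quantile normalization (adjusted p = 0.353 and 0.064). REG2, which encodes a regulatory subunit of the Glc7 phosphatase and has a role in turning Snf1 off, rose by 6.08.

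The TCA cycle rose as a group by less, with 16 of 18 genes up and a median of 1.14. Within it the citrate synthase genes led: CIT3 rose by 4.68, the peroxisomal CIT2 by 3.0 and the main mitochondrial CIT1 by 1.81. The succinate dehydrogenase subunit genes SDH1, SDH3, SDH4 and SDH2 followed at 2.17, 2.0, 1.83 and 1.48. At the 2-oxoglutarate and succinyl-CoA steps changes were smaller: KGD1 0.75, KGD2 0.98 and LSC2 0.79. LSC1 did not pass the threshold (0.06, adjusted p = 0.322), and LPD1, for the dihydrolipoyl dehydrogenase that pyruvate dehydrogenase shares, fell by 0.28.

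In alcohol and aldehyde metabolism the isozymes parted. ADH2, the ethanol-oxidising dehydrogenase gene, read 282 and 276 on the YPD arrays and 5181 and 5283 on the SPO arrays, a rise of 4.23 (SE 0.112, adjusted p = 5.30e-10). ADH1, the fermentative counterpart and among the brightest probe sets, read 9596 and 9072 on the YPD arrays and 9194 and 9072 on the SPO arrays and did not pass (-0.03, adjusted p = 0.594). The mitochondrial aldehyde dehydrogenase gene ALD4 rose by 2.43, the cytosolic stress-linked ALD3 by 3.33 and the acetyl-CoA synthetase gene ACS1 by 3.33, whereas its housekeeping paralog ACS2 rose by 0.14, a call lost in the fit of the 4 ime4 arrays alone (adjusted p = 0.0759). The pyruvate decarboxylase genes PDC5 and PDC1 fell (-1.96 and -0.68).

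Several glycolytic genes that serve both directions of the pathway moved little. TDH1 (1.38) and GPM2 (2.98), paralogs of TDH3 and GPM1, were exceptions and rose. ENO1 and ENO2 for enolase did not pass (0.11 and -0.07), and with ADH1, AHP1, GCN4 and TRX2 they were the 6 brightest genes that did not. Of 20 glycolysis genes 12 fell and 6 rose (median -0.25), but the falls of TDH3, FBA1, CDC19, GPM1 and TPI1 were small, -0.35 to -0.23. After quantile normalization, which raises the brightest SPO values, 7 fell, those 5 did not pass, and ENO1, ADH1, AHP1, GCN4 and TRX2 passed as rises. Larger changes included those of the hexokinases. HXK2, the hexokinase gene of glucose growth, fell by 1.35 (SE 0.0598, adjusted p = 1.61e-08), and GLK1 for glucokinase rose by 2.01 (SE 0.0482, adjusted p = 3.04e-10). HXK1 rose by 0.49. The phosphofructokinase subunit genes PFK1 and PFK2 fell (-0.80 and -0.62).

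Hexose transporter genes spread from -3.58 for HXT4 to 6.17 for HXT5. HXT5, known for expression in slow or arrested growth, read 15.4 and 17.8 on the YPD arrays and 1163 and 1227 on the SPO arrays. The low-affinity transporter gene HXT3 fell by 1.77, while HXT2 and HXT7 did not pass (0.00 and 0.04). Of the sensors, SNF3 rose by 1.40 and RGT2 by 1.12, while the co-repressor regulator gene STD1 fell by 1.33, as did the glucose repressor genes MIG2 and MIG1 (-1.05 and -0.69). Of 22 genes in this list 13 rose and 5 fell.

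In the pentose phosphate pathway 6 of 12 genes rose and 6 fell, beside 44.0% and 42.0% of all probe sets. Within it, the paralog pairs that were compared were split. The growth isozymes fell: GND1 for 6-phosphogluconate dehydrogenase (-1.74), SOL3 for 6-phosphogluconolactonase (-1.70) and TAL1 for transaldolase (-1.09). Their paralogs GND2, SOL4 and NQM1 rose by 1.79, 2.29 and 4.60, and the transketolase gene TKL2 by 2.02. NQM1 read 54.8 and 53.1 on the YPD arrays and 1289 and 1329 on the SPO arrays. Storage carbohydrate showed the same arrangement at its entry, where the phosphoglucomutase gene PGM1 fell by 1.74 and PGM2 rose by 2.11. Of 20 genes of trehalose and glycogen 17 rose (median 1.04), those that break the stores down (GDB1 2.80, ATH1 2.65, NTH2 1.97) as well as those that build them (GSY1 1.49, TSL1 1.39).

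Paralogs were compared in 65 measured pairs. Both members rose in 23, both fell in 9, and in 22 pairs 1 member rose and the other fell, 17 of them also after quantile normalization. Calls were common in both directions over all probe sets (44.0% rose and 42.0% fell), so opposite calls would be frequent between unrelated genes too. Whether paralogs parted more often than such pairs was not tested. Among these 22 opposite pairs the largest gap was that of TAL1 and NQM1, followed by SOL3 with SOL4, PGM1 with PGM2 and RNR1 with RNR3. Beyond carbon metabolism, opposite calls were found for the glucan synthase genes FKS1 (-1.82) and GSC2 (1.49), the CTP synthase genes URA7 (-3.10) and URA8 (0.31), the orotate phosphoribosyltransferase genes URA5 (-0.72) and URA10 (1.99), the isopropylmalate synthase genes LEU9 (-1.50) and LEU4 (0.89), and the Hsp90 genes HSC82 (-0.38) and HSP82 (1.63). In 10 of the 23 pairs that rose together, 1 member changed at least 4 times as much on the log2 scale as the other. The external NADH dehydrogenase genes NDE1 (0.17) and NDE2 (5.16) and the cytochrome oxidase subunit 5 genes COX5A (0.27) and COX5B (2.65, the hypoxic form) were among them. Probes of close paralogs can share target sequence, and how far they do was not tested.

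**Figure D2:**
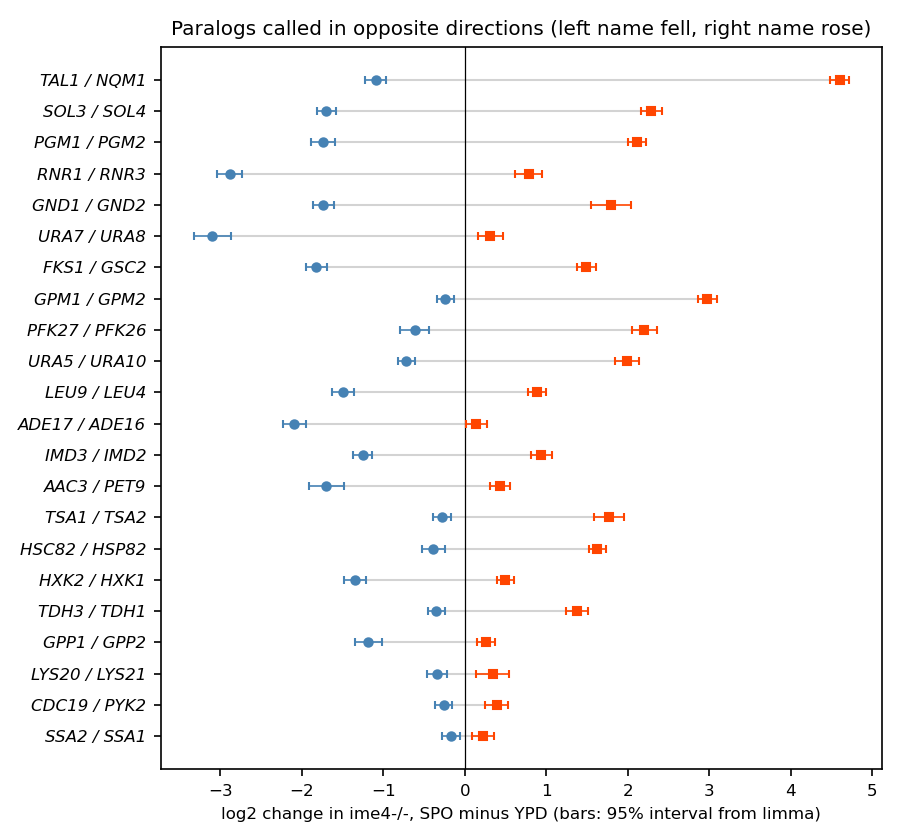
Change in ime4-/- (horizontal axis, log2, SPO minus YPD) of the 22 paralog pairs called in opposite directions. Circles mark the member that fell, squares the member that rose, and bars the 95% interval from limma. Of the falling members, TDH3, TSA1, SSA2, CDC19 and GPM1 did not pass in that direction after quantile normalization, and the rise of ADE16 was lost in 5 of 12 alternative settings.

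Mitochondrial genes divided into those that respire, which rose, and those that build mitochondrial proteins, which fell. In the respiratory chain and ATP synthase 35 of 40 genes rose and 0 fell, with a median of 0.55. Most rose modestly (CYT1 for cytochrome c1 1.06, COX7 0.89, COR1 0.75), as did HAP4 (1.07), for the activator of these genes. NDE2 stood apart, reading 26.4 and 29.0 on the YPD arrays and 969 and 1011 on the SPO arrays, a rise of 5.16 (SE 0.121, adjusted p = 2.73e-10). STF1, which takes part in regulating the ATP synthase, rose by 1.96 and the cytochrome c isoform gene CYC7 by 2.25.

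Of 69 mitochondrial ribosome genes, 61 fell and 4 rose (median -1.15). MRPS8 (-2.60) and MRP4 (-2.40) of the small subunit and MRPL7 (-2.36), MRPL15 (-2.17) and MRPL49 (-2.16) of the large subunit fell furthest, and MRPL7 read 952 and 1011 on the YPD arrays and 194 and 189 on the SPO arrays. The members that rose were MRPL25 (0.81), MRP10 (0.22), MRP49 (0.20) and MRP20 (0.18, lost after quantile normalization). All 13 mitochondrial aminoacyl-tRNA synthetase genes fell (median -1.05), MSR1 for arginine and MSD1 for aspartate most (-1.41 and -1.38). Protein import followed, with 31 of 32 genes down (median -1.07). Examples were TOM20, for a receptor of the outer membrane, which read 1829 and 1750.1 on the YPD arrays and 477 and 448 on the SPO arrays (-1.95), TOM5 (-1.92), and the motor genes PAM18 (-1.65) and MGE1 (-1.61). ERV1, the sulfhydryl oxidase gene of the intermembrane space relay, was the exception and rose by 0.44.

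**Figure D3:**
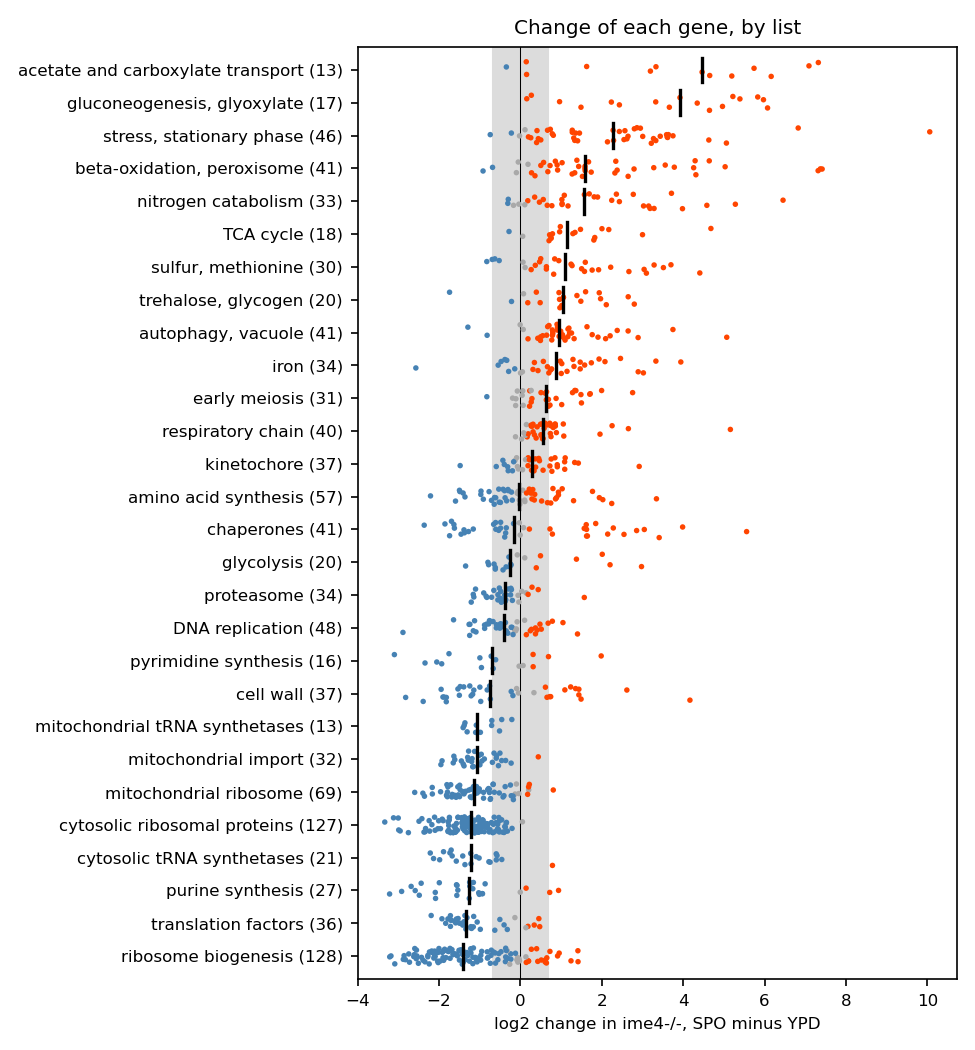
Change of each measured gene in ime4-/- (horizontal axis, log2, SPO minus YPD) in 28 gene lists, with the number of measured genes in brackets. Red points rose, blue points fell and grey points did not pass; black bars are list medians and the grey band holds the middle 50% of all probe sets. Medians run from -1.41 for ribosome biogenesis to 4.47 for acetate and carboxylate transport, with the respiratory chain to the right of zero and the mitochondrial ribosome, import and synthetase lists to the left.

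Fatty acid oxidation and peroxisome genes rose in 36 of 41 cases (median 1.59). The core enzyme genes were highest, with POX1, POT1 (7.32) and CTA1 (7.42) ahead of ECI1 at 4.64, FAA2 at 4.31 and FOX2 at 3.78. CTA1 read 16.2 and 14.6 on the YPD arrays and 2609.9 and 2642 on the SPO arrays. Among the peroxins, which build the organelle, PEX18, for a co-receptor that brings thiolase in, rose by 5.03. PIP2, for the oleate-responsive activator, rose by 2.79. FAA4, a long-chain acyl-CoA synthetase gene, and PEX31 fell (-0.68 and -0.92). Synthesis of fatty acids did not move as a unit: the elongase genes ELO2 and ELO3 fell (-2.70 and -1.77), ELO1 rose by 1.42, and the subunit genes of fatty acid synthase went apart, with FAS1 at -1.01 and FAS2 at 0.95. ACC1 for acetyl-CoA carboxylase rose by 1.66 (SE 0.0492, adjusted p = 1.12e-09). In sterol synthesis 16 of 28 genes fell, ERG4, ERG3 and ERG24 most (-1.65, -1.60 and -1.59), and 8 rose, 5 of them after centring on the array median. ARE2, for the main sterol acyltransferase, led those at 1.86.

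Cytosolic translation fell almost throughout. Of 127 ribosomal protein genes 126 fell (median -1.20), and the other, RPL31B, did not pass (0.05, adjusted p = 0.390) and rose after quantile normalization. RPS0B read 8062 and 8045 on the YPD arrays and 799.8 and 799.8 on the SPO arrays, and RPL13A and RPS9A fell (-2.99 and -2.95). Of 21 cytosolic synthetase genes 20 fell, WRS1 for tryptophan and FRS1 for phenylalanine most (-2.21 and -2.13), while DPS1 for aspartate rose by 0.79 (SE 0.0548, adjusted p = 4.32e-07). Translation factor genes fell in 30 of 36 cases, led by RLI1 of ribosome recycling (-2.19), TIF35 (-1.93) and TIF4631 (-1.84). The 4 that rose were TEF4 (0.48), GCD2 (0.45), HYP2 (0.34) and TIF3 (0.19, lost after centring, adjusted p = 0.0509).

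Ribosome biogenesis genes fell in 103 of 128 cases (median -1.41), and 17 rose. Among those that fell, NOP1 for the methyltransferase of box C/D small nucleolar ribonucleoproteins read 2300.1 and 2204 on the YPD arrays and 237 and 261 on the SPO arrays, a fall of 3.18 (SE 0.0579, adjusted p = 6.36e-11). NIP7, NOP13, NSR1 and DBP2 changed by -3.21, -3.09, -2.88 and -2.86. Genes of the same particles rose, NOP56 (0.40) and NOP58 (0.61), the partners of NOP1. So did CBF5 (0.51), for the pseudouridine synthase of the separate H/ACA class. The risers also held the RNA helicase genes MAK5, ECM16, ROK1, PRP43, DBP10 and the kinase gene RIO1. MAK5, whose helicase acts on the large subunit, read 1132 and 1089 on the YPD arrays and 2926 and 3004 on the SPO arrays (log2 change 1.42, SE 0.0665, adjusted p = 2.39e-08), and RIO1, of late small-subunit maturation, rose by 1.41. In WT all 128 genes fell, and the response was higher in ime4 for 124 and lower for 1 by the interaction test, against 29.5% and 34.6% of all probe sets. For MAK5 the difference between the genotypes' responses was 2.38 (WT -0.96, adjusted p = 2.62e-07), for BUD22 2.07 (ime4 1.24, WT -0.82) and for PRP43 2.35 (WT -1.62).

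Of 40 listed genes of RNA polymerases I and III 29 fell. The list holds subunits, some shared with polymerase II, as well as initiation factors and regulators. RPA135, for the second largest subunit of polymerase I, fell by 2.97 (SE 0.0603, adjusted p = 1.20e-10), and RPA49 and the shared RPC40 fell as well (-2.68 and -2.63). The 7 that rose included MAF1 (1.29), the gene of the repressor of polymerase III, and genes of initiation factors TFIIIC and TFIIIB, TFC3 (1.03), BDP1 (0.85) and BRF1 (0.85). Of 7 polymerase II genes 5 fell, among them RPB11 (-1.37).

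Nucleotide synthesis fell with translation. In purine synthesis and salvage 23 of 27 genes fell (median -1.26). AAH1, which converts adenine to hypoxanthine, read 953 and 946 on the YPD arrays and 96.5 and 109 on the SPO arrays, and the phosphoribosyltransferase genes HPT1 and APT1 fell (-2.92 and -2.68). IMD2 rose by 0.94, while IMD4 and IMD3, which encode the same IMP dehydrogenase activity, fell (-2.58 and -1.26). Of 16 pyrimidine genes 10 fell. URA1, for dihydroorotate dehydrogenase, read 664 and 686 on the YPD arrays and 131 and 136 on the SPO arrays, a fall of 2.34 (SE 0.0521, adjusted p = 2.07e-10). In WT its change was 0.12, and the responses differed by -2.46 (adjusted p = 1.49e-07). The ribonucleotide reductase gene RNR1 read 359 and 354 on the YPD arrays and 45.6 and 51.1 on the SPO arrays, while the damage-inducible RNR3 rose by 0.79.

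Amino acid synthesis was mixed, with 23 of 57 genes up, 25 down and a median of -0.04. ARO4 of aromatic synthesis (-2.21), SER2 (-1.59) and HIS1 (-1.49) fell, and ARG3 of arginine synthesis (3.34), the NAD-dependent glutamate dehydrogenase gene GDH2 (2.25) and its NADP-dependent relative GDH3 (2.03) rose. Sulfur assimilation went one way more clearly: 24 of 30 genes rose and 4 fell (median 1.10). MET32, for a DNA-binding partner of the activator Met4, read 48.6 and 49.8 on the YPD arrays and 1090.2 and 1003 on the SPO arrays, a rise of 4.41 (SE 0.0530, adjusted p = 6.19e-12). The S-methylmethionine permease gene MMP1 (3.70), STR3 (3.52), MET28 (3.29), MET2 (3.10) and the sulfate permease gene SUL1 (3.04) followed. Genes of the methyl cycle that fell were SAM1 and SAM2 of S-adenosylmethionine synthesis (-0.63 and -0.52) and SAH1, which removes the product of the methyl transfer (-0.69). By the interaction test, the sulfur response was higher in ime4 than in WT for 16 genes and lower for 1, against 29.5% and 34.6% of all probe sets.

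Genes under nitrogen catabolite repression, which are silent while good nitrogen sources last, rose in 28 of 33 cases (median 1.57). GAP1 read 20.3 and 23.0 on the YPD arrays and 1866 and 1926 on the SPO arrays (log2 change 6.45, SE 0.0702, adjusted p = 4.58e-12). The ammonium permease gene MEP2 read 36.5 and 47.1 on the YPD arrays and 1629 and 1600.2 on the SPO arrays, and the proline permease gene PUT4 rose by 4.58. Among the GATA regulators, GAT1, an activator gene, rose by 3.71, and DAL80, a repressor gene, went from background to at least 5.12-fold higher. Both rose more than in WT, by 1.87 for GAT1 (adjusted p = 1.58e-06) and 0.84 for DAL80 (adjusted p = 0.00564, though its size in YPD is only a bound), as did MEP2, by 1.43 (adjusted p = 2.41e-05). Over the list, the response was higher in ime4 for 5 genes and lower for 16, against 29.5% and 34.6% of all probe sets. GAP1 changed by 6.54 in WT. Of 23 listed genes of amino acid and peptide transport 14 rose and 7 fell. PTR2 for peptides (-2.01), TAT1 (-1.91) and BAP3 (-1.51) were among those that fell, while DIP5 (1.71) and AGP3 (1.91) rose.

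Of 26 phosphate genes 15 rose and 8 fell. SPL2 (4.37), for a regulator of low-affinity phosphate transport, PHM7 (4.19) and the sodium-phosphate cotransporter gene PHO89 (3.39) rose most. PHO3 read 443 and 457 on the YPD arrays and 58.8 and 54.1 on the SPO arrays, and the low-affinity transporter gene PHO90 fell by 1.26. Iron genes rose in 25 of 34 cases (median 0.87), with the cell wall mannoprotein genes of siderophore retention, FIT3 (3.94), FIT2 (3.33) and FIT1 (2.08), and the iron-sulfur scaffold gene ISU1 (2.90) in the lead. FRE1, the main ferric and cupric reductase gene, fell by 2.57 (SE 0.0616, adjusted p = 3.04e-10), against -0.83 in WT (difference -1.74, adjusted p = 4.99e-07). The multicopper oxidase gene FET3 did not pass (0.05).

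Stress and stationary-phase genes rose in 42 of 46 cases (median 2.29), among them SPG4 (6.83), FMP16 (5.06), FMP45 (4.63) and SPG1 (3.75). The vitamin B6 gene SNZ3 fell by 0.74. Of 41 chaperone genes 17 rose and 21 fell. Those that fell included SSB2 and SSB1 of ribosome-bound Hsp70 (-2.36 and -1.46), YDJ1 (-1.85) and the chaperonin subunit genes CCT7, CCT2, TCP1 and CCT5 (-1.74 to -1.62). Among those that rose, HSP26 went from 81.1 and 79.3 on the YPD arrays to 3719 and 3848 on the SPO arrays (log2 change 5.56, SE 0.0511, adjusted p = 1.59e-12). HSP12 rose by 3.99, SSA4 by 3.41 and the aggregate-sorting gene BTN2 by 3.05. In oxidative defence the catalase genes CTA1 and CTT1 (3.45) rose, while GPX2 (-1.53), GSH2 of glutathione synthesis (-1.28) and TRX1 (-0.99) fell.

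Autophagy and vacuole genes rose in 37 of 41 cases (median 0.95). Some receptors of selective autophagy and the core gene ATG8 were among the largest rises. ATG39, the receptor for the nuclear envelope, read 16.4 and 16.7 on the YPD arrays and 556 and 557 on the SPO arrays (log2 change 5.07, SE 0.0648, adjusted p = 7.55e-12). ATG36 for peroxisomes rose by 3.75, ATG40 for the endoplasmic reticulum by 2.65 and ATG32 for mitochondria by 2.21. ATG8, the lipid-bound core protein, rose by 2.89. Proteasome genes went down instead in 26 of 34 cases, RPN7 furthest (-1.21), while RPN4, the gene of their activator, rose by 1.57 (SE 0.0534, adjusted p = 2.73e-09). By the interaction test 20 of the 34 were lower in ime4 and 3 higher, against 34.6% and 29.5% of all probe sets.

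Division genes fell in part, where 42.0% of all probe sets fell and 44.0% rose. Of 48 replication genes 30 fell (median -0.41), among them POL32 of polymerase delta (-1.64) and POL30 for the sliding clamp (-1.25). POL2, the catalytic subunit gene of polymerase epsilon, rose by 1.40 (SE 0.0653, adjusted p = 2.25e-08), while its partner DPB2 fell by 1.16. The POL2 change was -0.78 in WT, a difference of 2.18 (adjusted p = 3.13e-07). Of the genes of Start, PCL1, CLN2 and CLN1, for cyclins of G1, fell (-1.83, -1.38 and -1.16), and SIC1, the inhibitor of B-type cyclin kinase, rose by 1.66 (SE 0.0489, adjusted p = 1.06e-09). CLB2 of mitosis fell by 1.01, as did the septum genes EGT2 and CHS2 (-1.40 and -1.32). Kinetochore genes rose in 22 of 37 cases (median 0.27), led by CTF19 (2.92, with 1 of 2 YPD arrays above background) and CHL4 (1.42). DUO1 of the microtubule ring fell by 1.48. Of 37 cell wall genes 22 fell and 12 rose (median -0.76). Among those that fell were SCW10 (-2.82), EXG1 (-2.39) and GAS1 (-1.95). SPI1 and TIP1, mannoprotein genes of resting or cold-shocked cells, rose by 4.17 and 2.62.

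RNA processing held some of the less uniform groups. Of 46 decay genes 26 fell and 11 rose (median -0.31). The exosome genes SKI6, RRP6 and RRP40 were among those that fell (-1.89, -1.48 and -1.37), and the decapping enhancer genes EDC1 and EDC2 rose by 2.44 and 2.47. Of 58 splicing genes 27 rose and 16 fell (median 0.12), a share of rises near the 44.0% over all probe sets. SMD2, for a core Sm protein, changed by 2.14 and PRP39 by -0.99. Among signalling genes, SOK2, for a transcription factor of the protein kinase A pathway, rose by 2.45, SIP2, a beta subunit gene of Snf1 kinase, by 1.71 and RIM15 by 1.34, and GAL83, another beta subunit gene, fell by 1.33.

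**Figure D4:**
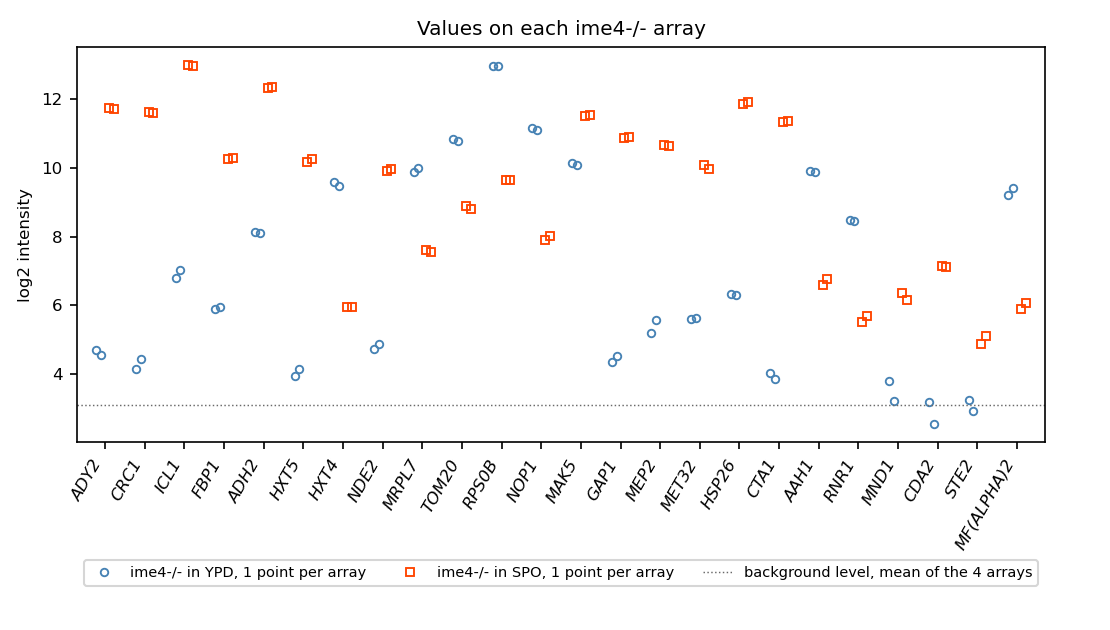
Log2 intensity (vertical axis) of 24 genes on each ime4-/- array, circles for YPD and squares for SPO, with 1 point per array. Replicates lie close together and the media do not overlap in any of the 24. The genes were picked for display, and those from the largest rises and falls were named by a rule that required no overlap. The absence of overlap therefore partly reflects the choice of genes. CDA2 was at background on both YPD arrays by each array's own level, and the dotted line is the mean of the 4 levels.

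Genes of the meiotic programme rose in part, and the share differed between its lists. In bulk RNA more cells expressing a gene and more RNA per cell cannot be told apart, which applies to every level given here and most to genes of a programme that cells enter one by one. Of 12 regulators of meiotic entry 9 rose and 1, MCK1, fell, beside 44.0% and 42.0% of all probe sets. The list mixes activator and repressor genes, and the repressor genes UME6 and SUM1 were among those that rose. IME1, the master activator gene, read 36.7 and 35.9 on the YPD arrays and 138 and 137 on the SPO arrays (log2 change 1.92, SE 0.0575, adjusted p = 1.16e-09), and IME2, its kinase target gene, 40.2 and 40.0 on the YPD arrays and 167 and 184 on the SPO arrays (log2 change 2.13, SE 0.0601, adjusted p = 8.10e-10). In both, the SPO arrays stood clear of the YPD arrays. The repressor gene RME1 (-0.11) and NDT80, the gene of the activator of the middle programme, did not pass: NDT80 read 10.2 and 14.0 on the YPD arrays and 14.1 and 20.7 on the SPO arrays (0.52, adjusted p = 0.0573), and passed as a rise in 4 of 12 alternative settings, with an adjusted p of 0.016 without SPO replicate 1. Of 31 early recombination genes 22 rose and 1 fell (median 0.64), where quantile normalization gave 4 falls and a floor at background 6. MND1 of strand exchange was highest (2.76), then MEK1 (2.0) and REC104 (1.72), while SPO16 fell by 0.82 and HOP1 did not pass (-0.11), or fell by 0.57 after quantile normalization. MND1 rose by 1.09 in WT, and the responses differed by 1.67 (adjusted p = 0.00379). Over the recombination list the response was higher in ime4 for 8 genes and lower for 8. Among the 12 entry regulators it was higher for 2 and lower for 7, against 29.5% and 34.6% of all probe sets.

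Of 38 middle sporulation genes 19 rose and 7 fell, or 13 fell after quantile normalization. Over all probe sets 44.0% rose and 42.0% fell. The list median of 0.25 lay within the range of -0.67 to 0.68 used above as the yardstick, as did that of the early recombination list (0.64). Of the largest rises, SPS19 (4.29) is also a peroxisomal reductase gene of fatty acid oxidation. SMA1, DON1, SPR3 and MPC54, of the prospore membrane, septin and spindle pole body, changed by 2.30, 1.73, 1.71 and 1.70. CLB6 and CDC5 fell (-0.89 and -0.71). Of 13 spore wall genes 12 rose. CDA2, a chitin deacetylase gene of the chitosan layer, read 9.0 and 5.8 on the YPD arrays and 143 and 138 on the SPO arrays and was at least 15.3-fold higher in SPO, whereas CDA1, its paralog, changed by 0.73. CHS3, the chitin synthase gene, fell by 1.39. The CDA2 response was higher in ime4 than in WT by the interaction test (adjusted p = 7.23e-06), with no exact size because its YPD level in ime4 is only a bound. Over the spore wall list the response was higher in ime4 for 1 gene and lower for 6, against 29.5% and 34.6% of all probe sets. The 39 markers listed for sporulating cells (the middle list with NDT80) summed to 1655 and 1679.8 in YPD and 2788 and 2909 in SPO, with 30 and 35 of them above background. CLB1, CLB3, CLB4, CLB6 and CDC5 among them are also division genes, and SPS19 a gene of fatty acid oxidation. The sum is therefore not specific to sporulation. Of the partners and readers of the methyl mark, SLZ1 rose by 2.63, MUM2 by 0.37 and PHO92, the reader gene, from background to at least 5.09-fold higher, while KAR4 fell by 0.80. In this list of 5, which includes IME4 itself, the response was lower in ime4 for 4 genes and higher for 0.

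Mating genes differed by class, and only part of the a-specific genes rose. All 5 alpha-specific genes fell (median -2.21), with MF(ALPHA)2 reading 595 and 677 on the YPD arrays and 59.8 and 67.6 on the SPO arrays, MF(ALPHA)1 at -2.21, the barrier gene AFB1 at -2.61 and the receptor gene STE3 at -1.86. Of 7 a-specific genes 4 rose, 2 did not pass and 1, MFA1, fell. These genes were dim in YPD, with a median of 3.53 log2 beside background levels of 3.22 and 3.17. STE2, for the alpha-factor receptor, read 9.4 and 7.6 on the YPD arrays and 29.3 and 34.3 on the SPO arrays, with 1 of 2 YPD arrays above background and a change of 1.91 (SE 0.101, adjusted p = 5.55e-08). MFA2, an a-factor gene, was at background in YPD and at least 5.82-fold higher in SPO, and STE6, for its exporter, rose by 1.17. Whereas STE2 rose here, it fell in WT (-1.51), and STE3 rose there (0.54), with differences of 3.42 and -2.40 (adjusted p = 3.13e-07 and 2.78e-06). The HMLALPHA1 probe set, which shares probes with other sequences, fell by 1.19. Of 22 haploid and pheromone pathway genes 14 fell, among them FAR1 (-1.75) and STE4 (-1.13), and 5 rose. Summed over the list, a-cell markers with HMRA1 read 155 and 143 in YPD and 289 and 290.1 in SPO, with 4 to 6 of 8 above background in YPD and 7 in SPO. Alpha-cell markers with HMLALPHA1 read 8696 and 8803 in YPD and 2125 and 2212 in SPO, all 6 above background on every array. The part that cells of the other mating type might have in these changes was not tested.

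Some genes crossed between background and signal. In SPO, 64 of 5311 genes lay above background on both arrays after lying at background on both in YPD, and 3 went the other way. With the 99th percentile of the other species' probe sets as the background level, the counts were 114 and 3. The brightest newly visible genes were RGI2, POX1, the uncharacterised YMR206W (at least 32.2-fold), CDA2, YOR186W, GAT3, MFA2, STL1 of glycerol uptake (at least 5.71-fold), DAL80 and PHO92. The 3 that disappeared were YDR034C-A, SLF1 and SPO19, of which SLF1, for an RNA-binding protein with a La motif, read 17.1 and 15.3 on the YPD arrays and 7.6 and 7.9 on the SPO arrays. A further 81 genes were at background on all 4 arrays, and 5110 lay above it on all 4.

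The difference from WT was tested for every gene as an interaction between genotype and medium. The response was higher in ime4 for 1579 probe sets (29.5%) and lower for 1854 (34.6%). Which count was larger turned with the scaling: after centring each array on its median, 33.2% were higher and 29.8% lower. Where both genotypes passed in the same direction and the interaction passed too, 1976 genes changed less in ime4 and 555 changed more. Another 229 genes were called in opposite directions, 136 of which rose in ime4. The cytosolic ribosomal protein genes, at a median of -1.20 in ime4 and -2.03 in WT, the biogenesis genes (-1.41 and -2.44) and the cytosolic synthetases (-1.22 and -2.02) were among those that fell less. Medians for the mitochondrial ribosome were -1.15 and -0.95, with 29 of 69 genes lower in ime4 and 7 higher. ADH2 rose by 4.23 in ime4 and 7.50 in WT (difference -3.28, adjusted p = 4.79e-07), and SFC1 by 5.97 and 7.98 (difference -2.0, adjusted p = 5.25e-06). The cell wall gene SPI1 rose more in ime4 (3.10 in WT, difference 1.07), as did BTN2 (1.66, 1.38), ACC1 (0.36, 1.30) and SOK2 (1.31, 1.15).

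**Figure D5:**
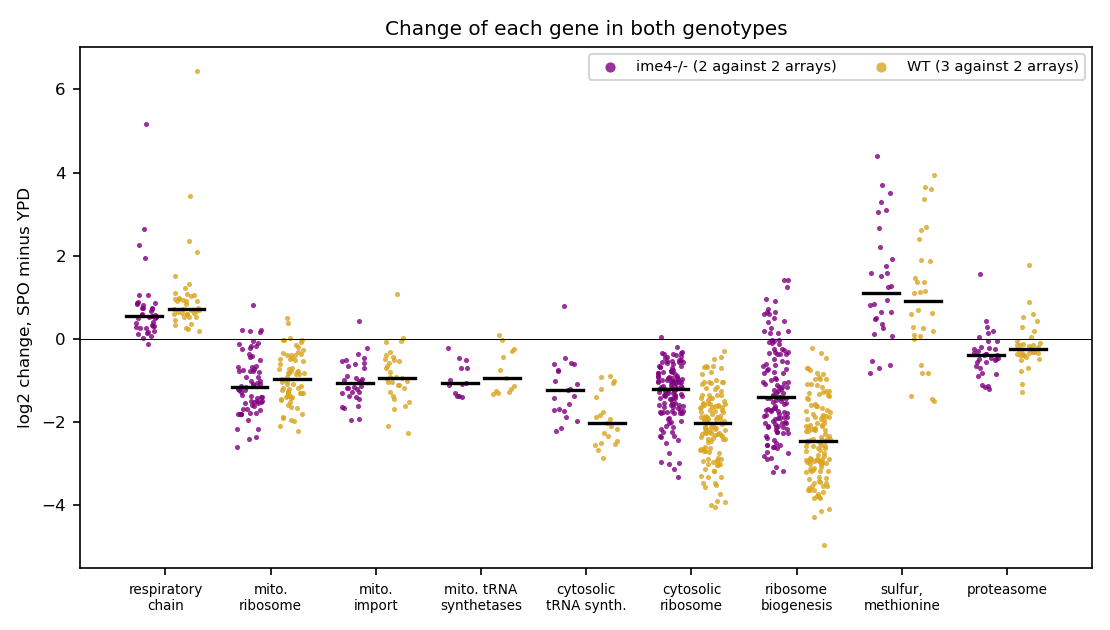
Change of each gene (vertical axis, log2, SPO minus YPD) in 9 lists in ime4-/- and in WT, with black bars at the medians. The cytosolic ribosome, ribosome biogenesis and cytosolic synthetase lists lie lower in WT, while those of mitochondrial import lie at -1.07 in ime4-/- and -0.93 in WT.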

How the data were processed

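Total RNA, 600 ng per sample, was labelled as biotinylated cDNA and hybridised to Affymetrix arrays, per the labels' protocols. The authors deposited 1 linear intensity per probe set, and the values come from RMA, per the submitters' processing notes, which give no settings. This method brings arrays to a common scale, so changes are relative to other transcripts and a shift of all of them would not show. The log2 of each intensity was taken with no offset. Of 9676 probe sets, 6772 had a gene name in the array annotation, whose symbols were updated by locus from RefSeq (assembly R64). Of these, 5359 were tested, and 1412 for another species set the background level of each array, their 95th percentile (99th as an alternative). A gene at background on all arrays of a group has a fold of "at least", computed against that level. No sequence or coordinate is given.

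Group means were fitted to all 9 arrays by lmFit and eBayes of limma 3.58.1 under R 4.3.3 (5 residual and 4.07 prior degrees of freedom), with two-sided tests and Benjamini-Hochberg adjustment over the 5359 sets. The median SE of a change was 0.0642 log2. Simulated data of this size returned 41 of 50 shifts of 0.5 log2 and 50 of 50 of 1. Most simulated probe sets had no change, whereas only 750 of the 5359 real ones did not pass, so recovery in the real data can differ. P-values reflect the spread between the biological replicates the labels name, and the number of arrays limits precision. Replicate numbers were checked and did not pair the samples. Alternatives were the 4 ime4 arrays alone, quantile normalization, centring on the median, leaving out the dimmest 25%, a floor at background, an intensity trend, an offset of 16, a replicate block and leaving out each ime4 array.

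The gene lists, paralog pairs and rules were chosen with earlier results of these data known, and list counts are descriptions without a test. Named were IME4, the 12 largest rises and falls without overlap of arrays, per list up to 5 largest changes, up to 3 opposite ones and the regulators it is named for, paralogs that moved apart, up to 10 genes crossing background each way and the 6 brightest not called. Further members, mostly at other steps of the same pathways, were added after their values were seen. Where a gene had several probe sets, the brightest was used.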

Additional observations from a re-analysis of the deposited data

Results flagged for a closer look

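The response to SPO differed between ime4 and WT by the interaction test for the genes below, which are those named in the report whose responses were called in opposite directions and lay at least 1.5 log2 apart, or lay at least 2 log2 apart in any case. The value is the ime4 change minus the WT change, with the adjusted p from limma. Outliers within a group could not be looked for with 2 or 3 arrays a group. The arrays of the genotypes differ in mating-type markers too, so genotype and mating-type pattern cannot be told apart.

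Among genes of ribosome assembly and translation, the difference was 2.38 for MAK5, 2.35 for PRP43, 2.27 for ROK1, 2.21 for ECM16, 2.07 for BUD22, 1.96 for DBP10, 1.75 for RIO1, 1.72 for TIF3 and 1.69 for DPS1, with adjusted p from 1.50e-07 (PRP43) to 3.31e-06 (BUD22). All 9 rose in ime4 and fell in WT. POL2 of DNA replication did the same (2.18, adjusted p = 3.13e-07).

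Among metabolic genes the difference was -3.28 for ADH2 (adjusted p = 4.79e-07), -2.28 for FBP1 (adjusted p = 2.94e-07), -2.19 for PHO89 (adjusted p = 4.93e-07) and -2.0 for SFC1 (adjusted p = 5.25e-06), which all rose in both genotypes and less so in ime4. URA1 stood -2.46 apart, falling (-2.34) in ime4 against a change of 0.12 in WT. LYS20, for homocitrate synthase, fell by 0.34 in ime4 and rose by 1.45 in WT (-1.79, adjusted p = 3.13e-07).

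Of the mating genes, STE2 differed by 3.42, MFA2 by 2.67 and STE3 by -2.40. For STE2 and MFA2 the YPD level in ime4 lay at or near background, so that these sizes are uncertain. The spore wall gene CDA2 differed by 2.77, a fitted value and no bound, since it was at background in ime4 in YPD.

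Of 2865 probe sets without a gene name, which entered no comparison, 66 were above background in SPO and at least 2-fold higher there than in YPD with no overlap of arrays, and 29 were above background in YPD and at least 2-fold lower in SPO. What they target is not known here.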

How the results depend on the processing

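Under 12 alternative settings (11 for the interaction) the counts of calls and of changes of at least 2-fold stayed within 1.5 times the reported ones. The number of probe sets that rose ran from 1735 (without the dimmest 25%) to 2361 (log2 of the value plus 16), and the number that fell from 1868 (without the dimmest 25%) to 2441 (quantile normalization). Without each of the 4 ime4 arrays in turn, 2231 to 2256 rose and 2165 to 2199 fell, 904 to 923 and 859 to 892 of them by at least 2-fold, and the interaction was higher in 1462 to 1502 and lower in 1651 to 1783. After centring on the median the interaction was higher in 1779 and lower in 1595, which turned the balance. With the 99th percentile of the other species as the background level, 114 genes rather than 64 left background in SPO and 3 still fell to it. Replicate numbers did not pair the samples (correlation of deviations -0.0059), and with a replicate block 2344 rose and 2243 fell, the interaction counts were 1502 and 1748, and among the genes named here the rise of ADE16 was lost. Reversals were few. After quantile normalization TRX2 read 0.16, ADH1 0.14, AHP1 0.17, SSA2 0.16, TPI1 0.10 and TSA1 0.0542, all bright genes. HMRA1 read -0.0368 with values floored at background, and IME4, under background throughout, -0.23 to 0.17 without 1 array in turn, below the level at which a change can be read. The cause of the other shifts was not tested. With 2 arrays a group, precision rests on the spread shared over 9 arrays, and dim genes carry most of the uncertainty in size.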

Other observations

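Glycerol genes rose in 9 of 11 cases in ime4 (median 0.84). GUT2, for the mitochondrial glycerol-3-phosphate dehydrogenase, read 103 and 103 on the YPD arrays and 918 and 944 on the SPO arrays and rose by 3.18 (SE 0.0494, adjusted p = 2.43e-11) by limma, and GUT1, for glycerol kinase, rose by 1.54. GPD2 of glycerol formation rose by 2.03, while the phosphatase gene GPP1 of the next step fell by 1.18. The uptake gene STL1 left background, as reported above.

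Bud site and septin genes showed no common direction, with 6 of 18 up and 8 down. The axial landmark gene AXL2 fell by 1.89, as did the bipolar gene RAX1 (-1.21). Among septins CDC12 fell by 1.43 while SHS1 rose by 1.43, beside the sporulation-specific SPR3. Of 9 histone genes 4 rose and 3 fell: the linker histone gene HHO1 fell by 1.04, as did HTA1 (-0.83), while HTB1 rose by 0.67. HTA1 and HTB1 are neighbours that are transcribed from a shared intergenic region.

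Daughter-cell genes, which separate mother and bud, also parted. DSE1 rose by 1.91, with 1 of 2 YPD arrays above background, while DSE4 fell by 1.27, as did ASH1 (-1.23). In WT the DSE1 change was 0.39, a difference of 1.52 by limma's interaction test (adjusted p = 3.16e-04).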
